A study of Mus musculus with 8 samples.

Results

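The Bcl2 family decides whether a cell keeps its mitochondria intact or dies, and its members were followed here in subpopulations of a mouse T cell lymphoma. The family was defined by a list of 10 genes, 4 pro-survival (Bcl2, Bcl2l1, Mcl1, Bcl2l2), 4 BH3-only (Bcl2l11, Pmaip1, Bbc3, Bid) and 2 effectors (Bax, Bak1). Members are the probe sets whose single gene symbol in the array's platform annotation is one of these names. Such probe sets were found for 9 of the 10 genes, 26 of the 22626 probe sets tested, and the 9 genes are among 12393 genes with a single symbol. Bax is not analysed here. The cells were stable lymphoma lines of mouse T cells deficient in Snf5 (gene Smarcb1), which belongs to the SWI/SNF complexes that remodel chromatin. Purification by CD44, a surface receptor for hyaluronan that marks memory T cells, gave CD44hi cells (4 arrays) and CD44lo cells (4 arrays), and the Snf5 deficiency is shared by both. Both groups come from cultured lines. The labels say neither how many lines were used nor whether the replicates, 4 per group, are different cultures. The p-values therefore reflect array-to-array spread alone, and that spread may be technical. The arrays were of the type Affymetrix Mouse 430A 2.0.

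Proteins of this family act on the outer membrane of the mitochondrion. Effectors such as Bak open pores that release cytochrome c and set off caspases, pro-survival members bind and hold the effectors and the BH3-only proteins, and BH3-only proteins are induced or activated by stress and push the balance towards death. In T cells Bcl-2, Bcl-xL and Mcl-1 keep different stages alive, and Bim, the product of Bcl2l11, removes thymocytes and ends T cell responses.

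Array medians lay between 320.3 and 339.1 on the linear intensity scale. With 4 arrays a group, precision is set by how few arrays there are. Both Cd44 probe sets were higher in CD44hi, at 11.20 to 12.37 against 3.88 to 5.94 in CD44lo on the log2 scale. Over 10 probe sets of 8 T cell genes, Cd3d, Cd3e, Cd3g, Cd8a and Cd8b1 were high in both groups, while Cd4, Thy1 and Cd2 were low in both, and 0 of the 10 passed the limma test (0 also at an unadjusted p under 0.05, with or without the replicate number as a block). Markers of B cells (6 genes), myeloid cells (7) and erythroid cells (2) lay at 3.61 to 6.01 in CD44hi and 3.44 to 5.66 in CD44lo, and 0 of their 19 probe sets passed with or without the block (2 at an unadjusted p under 0.05, and 3 with the block). Both probe sets at an unadjusted p under 0.05 without the block are of the B cell gene Ms4a1, which codes for CD20. Over all 22626 probe sets 2681 (11.8%) had an unadjusted limma p under 0.05, and 4059 with the block. Ms4a1 1450912_at was at 4.99 ± 0.83 in CD44hi and 3.68 ± 0.20 in CD44lo (n = 4 arrays each, SD), without overlap and higher at all 4 numbers (difference 1.31, limma adjusted p = 0.110, or 0.0758 with the block), and Ms4a1 1423226_at differed by 0.78 with overlapping groups (limma adjusted p = 0.253). The summed linear intensity of the 8 B cell probe sets was 217 to 266 in CD44hi and 202 to 207 in CD44lo, and that of the 9 myeloid ones 249 to 274 in CD44hi and 251 to 268 in CD44lo. The 9 stromal probe sets summed to 360 to 894 in CD44hi and 1198 to 2686 in CD44lo, and that gap is of 1 gene. Postn, the gene of the matrix protein periostin, was at 8.17 ± 1.26 in CD44hi and 10.57 ± 0.67 in CD44lo (n = 4 arrays each, SD), a difference of -2.40 that was negative at all 4 numbers and passed with the block (limma adjusted p = 0.0022) but not without it (0.0768). The other 8 stromal probe sets, of collagens, Dcn and Lum, averaged 3.48 to 5.67 in CD44hi and 3.46 to 5.62 in CD44lo, with differences of -0.16 to 0.05, and 0 of them passed or had an unadjusted p under 0.05, with or without the block. Of the 3 natural killer cell probe sets 0 passed (1 at an unadjusted p under 0.05, with or without the block). That 1 is of Nkg7, at 14.098 ± 0.121 in CD44hi and 13.785 ± 0.086 in CD44lo (n = 4 arrays each, SD), without overlap. It was higher at all 4 numbers (difference 0.31, limma adjusted p = 0.122, or 0.0860 with the block). Ncr1 averaged 4.27 in CD44hi and 4.04 in CD44lo, and Gzma 3.85 in CD44hi and 3.97 in CD44lo. The part of these cell types in the differences below was not tested. Arrays numbered 1 and 3 resembled each other within both groups, apart from those numbered 2 and 4. Their root mean square log2 difference was 0.18 in CD44hi and 0.18 in CD44lo between numbers 1 and 3, and 0.31 in CD44hi and 0.20 in CD44lo between numbers 2 and 4. Between an odd and an even number it was at least 0.42 in CD44hi and at least 0.30 in CD44lo. Values are therefore also given by replicate number. RNA quality was read from the 3' and 5' control probe sets of Gapdh. Their log2 difference was 0.816 ± 0.052 on the CD44hi arrays and 0.696 ± 0.036 on the CD44lo arrays (SD of 4 arrays each, p = 0.0286 by a two-sided exact permutation test), while that of Actb was 0.626 ± 0.152 in CD44hi and 0.498 ± 0.105 in CD44lo (p = 0.229 by the same exact test). The smallest p that this exact permutation test can give with 4 arrays a group is 0.0286, reached whenever the groups do not overlap. The part of RNA quality in the differences below was not tested either.

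Of the 26 member probe sets, 2 rose and 1 fell in CD44hi by limma, with p adjusted by Benjamini-Hochberg over all 22626 probe sets and a threshold of 0.05. A probe set of Bcl2l1, the gene of the survival protein Bcl-xL, was 1.62-fold higher, and that of Pmaip1, the gene of the BH3-only protein Noxa, was 1.79-fold higher. Among the 6 probe sets of Mcl1, a short-lived survival protein that Noxa binds, 1 was 1.29-fold lower. Over all probe sets 1.64% rose and 1.48% fell, 3.12% together, against 3 of 26 members. With the replicate number as a block 2 members rose and 2 fell, the added one being a probe set of Bcl2l11, and over all probe sets 571 rose (2.52%) and 594 fell (2.63%), 5.15% together, in place of 371 and 334. With 1 probe set a gene, the brightest, 2 of the 9 members rose and 0 fell, against 3.81% of 12393 genes past the test in either direction. Mcl1 is then read by another probe set than the one that fell. In bulk RNA such as this, fewer cells of a type and less RNA per cell cannot be told apart.

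The 4 CD44hi values lay wholly above the 4 CD44lo values for 2 member probe sets and wholly below them for 9. Over all probe sets these shares were 4.73% and 4.61%. The 9 lower ones are all 6 probe sets of Mcl1 and 3 of the 5 of Bcl2l11. Probe sets of one gene are not independent of each other, so they count as 2 genes and not as 9 independent results. The median log2 difference, CD44hi minus CD44lo, was -0.19 over the 26 member probe sets, against -0.0011 over all probe sets. Negative differences were found for 20 of the 26, and for 11393 of all 22626 probe sets. Among the 20 are all probe sets of Mcl1 (6), Bcl2l11 (5) and Bcl2l2 (4), so they are not independent results either. A log2 difference of at least 0.25 in either direction was found for 15 of 26 members (57.7%) and for 17.1% of all probe sets. One of at least 0.5 was found for 3 members (11.5%) and 5.35% of all, and one of at least 1 for 0 members and 1.45% of all. These counts, too, hold several probe sets of the same gene.

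**Figure D1:**
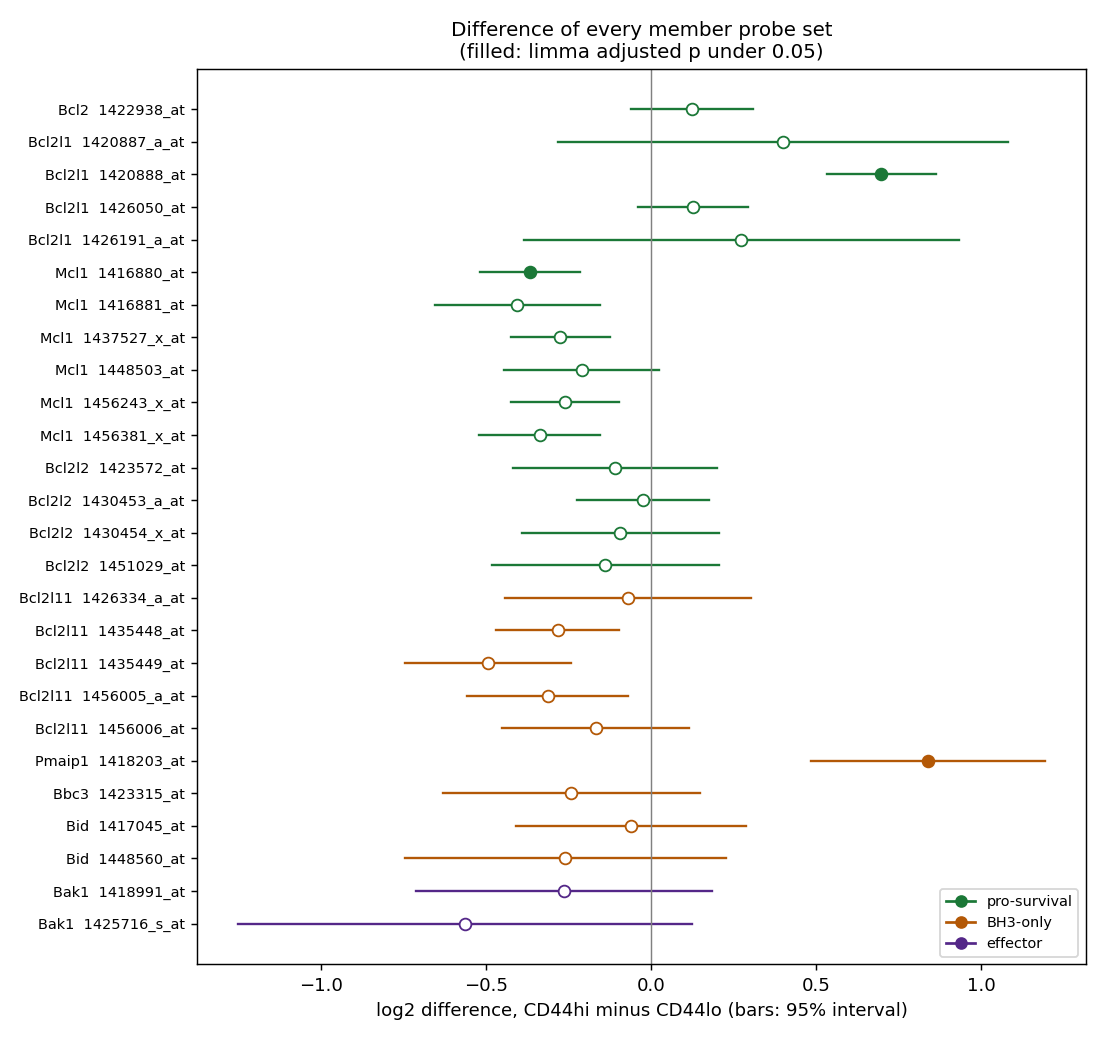
Log2 difference, CD44hi minus CD44lo, for each of the 26 member probe sets (vertical axis), with 95% intervals from limma as bars and colours for the role of the gene. Filled points passed the test: Bcl2l1 1420888_at at 0.70 and Pmaip1 at 0.84 to the right, and Mcl1 1416880_at at -0.37 to the left.

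**Figure D2:**
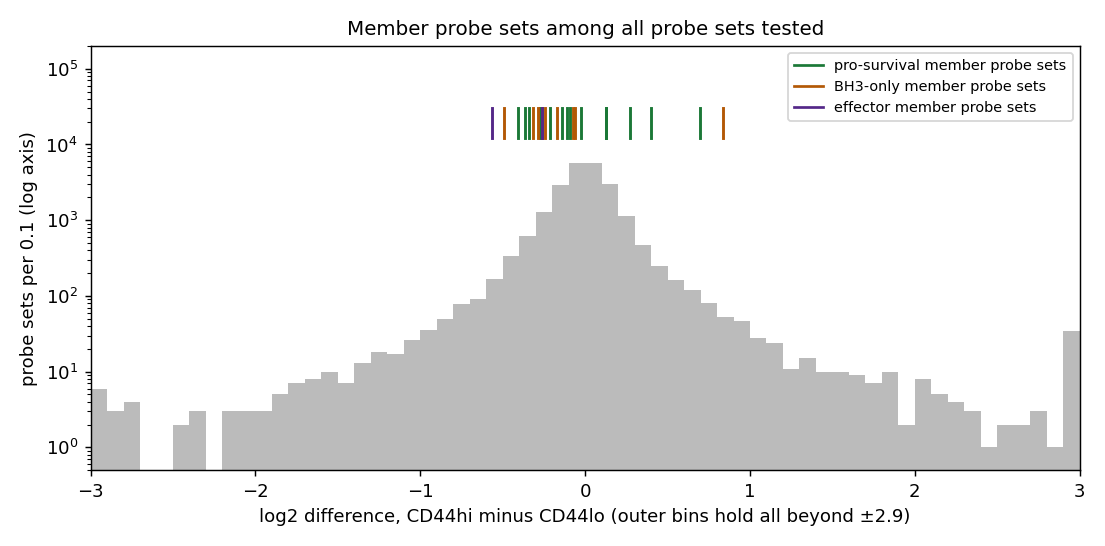
Number of probe sets (log axis) per 0.1 of log2 difference, CD44hi minus CD44lo, over all 22626 probe sets, with a coloured stroke for each of the 26 member probe sets. The members lie between -0.56 and 0.84, with most of them left of 0.

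RefSeq promoter windows, the 250 bases before an annotated transcript start in build GRCm38.p6, were taken for 8 of the 9 measured members, 13 windows in all. Pmaip1 was left out. The windows were searched on both strands for TTCNNNGAA (the STAT motif), GTAAACA (a forkhead motif) and the kappa-B motif of NF-kappaB, since factors of these families are known regulators of Bcl2l1 and Bcl2l11. The 3 windows shown are of genes, Pmaip1 apart, with a probe set that passed with or without the block. They are 1 of the 3 of Bcl2l1, the one of Mcl1 and 1 of the 2 of Bcl2l11. For Bcl2l1 and Bcl2l11 the window with a kappa-B or forkhead match was chosen. Capitals mark a kappa-B match in Bcl2l1 and a forkhead match in Bcl2l11.
Bcl2l1, chr2:152830718-152830967, minus strand: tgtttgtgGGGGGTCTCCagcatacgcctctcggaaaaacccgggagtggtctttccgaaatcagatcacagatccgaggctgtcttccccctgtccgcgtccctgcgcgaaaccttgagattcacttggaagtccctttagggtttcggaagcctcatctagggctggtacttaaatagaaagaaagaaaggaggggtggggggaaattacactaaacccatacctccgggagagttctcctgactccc
Mcl1, chr3:95658471-95658720, plus strand: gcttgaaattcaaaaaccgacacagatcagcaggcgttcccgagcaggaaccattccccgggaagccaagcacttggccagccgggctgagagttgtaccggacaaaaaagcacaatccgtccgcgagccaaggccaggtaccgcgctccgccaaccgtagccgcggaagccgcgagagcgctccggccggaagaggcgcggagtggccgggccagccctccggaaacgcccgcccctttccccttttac
Bcl2l11, chr2:128125788-128126037, plus strand: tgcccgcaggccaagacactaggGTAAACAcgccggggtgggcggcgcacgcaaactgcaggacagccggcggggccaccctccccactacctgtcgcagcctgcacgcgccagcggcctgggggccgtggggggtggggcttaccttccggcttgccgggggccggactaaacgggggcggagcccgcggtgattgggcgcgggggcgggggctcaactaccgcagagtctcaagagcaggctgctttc
The kappa-B match of Bcl2l1 begins 242 bases before the start, and the other 2 Bcl2l1 windows hold none. Over 32851 windows of the same length 3.9% hold the kappa-B motif, 3.17% GTAAACA and 7.02% TTCNNNGAA. Of the 13 member windows, 2 hold the kappa-B motif (Bcl2l1 and Bbc3), 2 GTAAACA (Bcl2l11, beginning 227 bases before the start, and Bbc3) and 0 TTCNNNGAA. The GC box GGGCGG is in 9 of the 13 and in 32.7% of all windows. The 13 windows are of 8 genes, and 2 of the 3 of Bbc3 overlap each other, so they are not independent. No binding was measured in these samples, and a match is a description of the letters alone.

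Among the probe sets of the pro-survival genes, Bcl2l1 1420888_at had the smallest limma adjusted p. It was at 10.15, 9.999, 10.05 and 9.97 in CD44hi replicates 1 to 4, against 9.29, 9.34, 9.34 and 9.40 in CD44lo (log2 intensity). The groups were well apart and each was narrow. The means were 10.04 ± 0.08 in CD44hi and 9.34 ± 0.05 in CD44lo (n = 4 arrays each, SD), a log2 difference of 0.70 (SE 0.07, 95% interval 0.53 to 0.86, limma adjusted p = 0.000889). The difference at replicate numbers 1 to 4 was 0.86, 0.66, 0.71 and 0.57, so it was positive at each. It passed with any 1 array left out (limma adjusted p up to 0.00552), but not with numbers 2 and 4 alone (0.0504) or with arrays 1 and 3 and arrays 2 and 4 averaged (0.259).

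The other 3 Bcl2l1 probe sets did not pass. Probe set 1420887_a_at was at 9.02, 7.55, 8.58 and 7.73 in CD44hi replicates 1 to 4, against 7.98, 7.63, 7.90 and 7.78 in CD44lo. Arrays 1 and 3 of CD44hi were high, and arrays 2 and 4 lay among the CD44lo values or below them. Its difference was 0.40 (95% interval -0.28 to 1.08, limma adjusted p = 0.742), made of 0.86 for replicate numbers 1 and 3 and -0.07 for numbers 2 and 4. Probe set 1426191_a_at had the same shape, at 9.57, 8.17, 8.92 and 8.30 in CD44hi against 8.75, 8.20, 8.60 and 8.32 in CD44lo. Its difference was 0.27 (limma adjusted p = 0.853), or 0.57 between numbers 1 and 3 and -0.03 between numbers 2 and 4. Whether the differences at odd and even numbers differ from each other was not tested. Probe set 1426050_at stayed at 3.98 to 4.15 in CD44hi and 3.88 to 4.00 in CD44lo, where the array medians of the Bacillus subtilis control probe sets lie (3.95 to 4.12), so it gives no usable level. Thus 1 of 4 Bcl2l1 probe sets passed. All 4 had a positive mean difference, but that of 1426050_at is at the control level, and those of 2 others rest on the odd-numbered arrays.

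**Figure D3:**
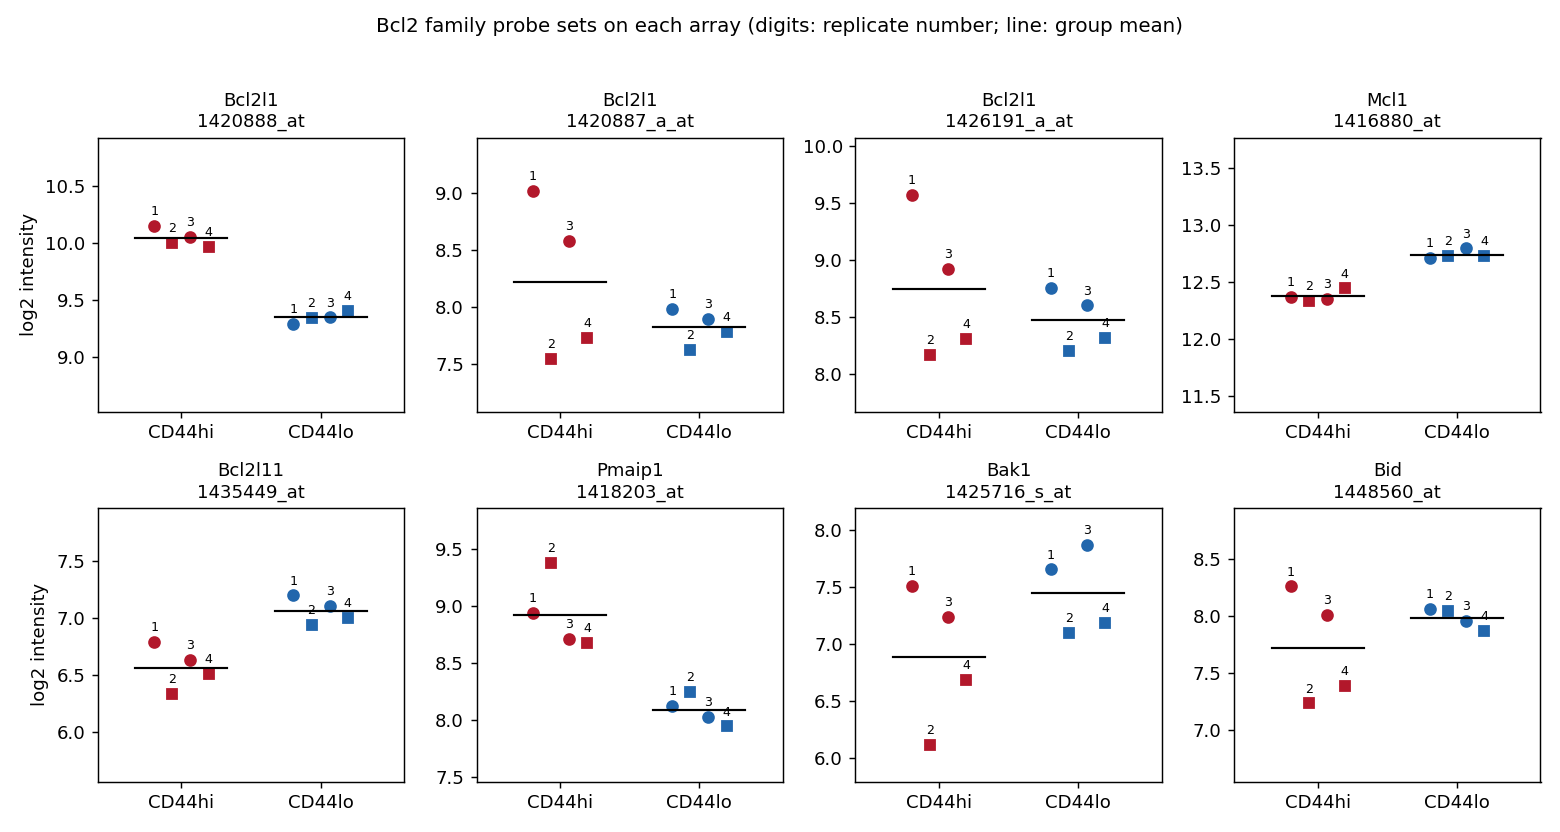
Log2 intensity (vertical axes, all of equal span) of 8 member probe sets on every array, CD44hi left (red) and CD44lo right (blue), with replicate numbers as digits and group means as lines. Bcl2l1 1420888_at, Mcl1 1416880_at, Bcl2l11 1435449_at and Pmaip1 have groups that do not overlap, while for Bcl2l1 1420887_a_at and 1426191_a_at only arrays 1 and 3 of CD44hi stand above the CD44lo arrays.

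Mcl1 was lower in CD44hi on all 6 of its probe sets, and 1 passed. Probe set 1416880_at was at 12.37, 12.33, 12.35 and 12.44 in CD44hi replicates 1 to 4, against 12.71, 12.73, 12.79 and 12.73 in CD44lo. The means of 12.37 ± 0.05 in CD44hi and 12.74 ± 0.04 in CD44lo (n = 4 arrays each, SD) differ by -0.37 (SE 0.07, 95% interval -0.52 to -0.21, limma adjusted p = 0.0197). This call was lost without CD44hi replicate 1 or 3 or without any 1 of the CD44lo replicates (limma adjusted p of 0.0587 to 0.0795), with differences of -0.39 to -0.35 when 1 array was left out.

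The other 5 Mcl1 probe sets had differences of -0.41, -0.28, -0.21, -0.26 and -0.34 (limma adjusted p of 0.0685 to 0.506). Probe set 1416881_at, with the difference of -0.41, was at 11.27, 10.92, 11.19 and 10.84 in CD44hi against 11.47, 11.53, 11.49 and 11.35 in CD44lo. Its CD44hi values spread more than its CD44lo values (SD 0.21 against 0.08). The brightest Mcl1 probe set, 1437527_x_at, was at 12.63 to 12.74 in CD44hi and 12.92 to 12.95 in CD44lo, a difference of -0.28 (SE 0.07, limma adjusted p = 0.0689). Probe sets whose name ends in x_at, which are 3 of the 6, hold probes that can also match other sequences. The weakest difference, -0.21 for 1448503_at, was 11.78 in both groups at replicate number 2, where the highest CD44hi value all but meets the lowest CD44lo value, and -0.49 at number 4. Without CD44hi replicate 4 it was -0.12.

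Bcl2, the founding survival gene of the family, did not pass the test. It was at 10.61, 10.55, 10.46 and 10.69 in CD44hi replicates 1 to 4, against 10.40, 10.56, 10.37 and 10.50 in CD44lo. The groups overlap, with a difference of 0.12 (SE 0.08, 95% interval -0.06 to 0.31, limma adjusted p = 0.682). Bcl2l2, which codes for the survival protein Bcl-w, had differences of -0.11, -0.02, -0.09 and -0.14 on its 4 probe sets, none of which passed (limma adjusted p of 0.856 to 0.969; 0 of 4 also with the block). Its brightest probe set, 1423572_at, was at 10.69 to 11.09 in CD44hi and 10.76 to 11.25 in CD44lo, and its interval of -0.42 to 0.20 leaves room for a change in either direction.

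Among the BH3-only genes, Pmaip1 rose. Noxa, its product, is an inducible inhibitor of Mcl-1. The single probe set, 1418203_at, was at 8.95, 9.38, 8.71 and 8.68 in CD44hi replicates 1 to 4, against 8.13, 8.25, 8.03 and 7.95 in CD44lo. All CD44hi values lay above all CD44lo values, and replicate 2 was the highest of both groups. The means were 8.93 ± 0.32 in CD44hi and 8.09 ± 0.13 in CD44lo (n = 4 arrays each, SD), a log2 difference of 0.84 (SE 0.16, 95% interval 0.48 to 1.19, limma adjusted p = 0.0212). By replicate number the difference was 0.82, 1.13, 0.68 and 0.73. The call was lost without CD44hi replicate 1 or without CD44lo replicate 1, 3 or 4 (limma adjusted p of 0.0559 to 0.0772), with differences of 0.69 to 0.92 when 1 array was left out.

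The 3 probe sets with a single other gene whose 8 values were most like those of Pmaip1 are of Marcks (Pearson's r = 0.995), Cd47 (0.987) and Riox2 (0.985). Marcks codes for a membrane-bound substrate of protein kinase C, and Cd47 for the surface signal that restrains phagocytes. Their log2 differences were 0.78, 0.69 and 0.34. These correlations describe 8 arrays that share the 2 groups and the odd and even numbering.

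Bcl2l11 had negative differences on its 5 probe sets, and none passed without the block (0 of 5 by limma, and 1 of 5 with the block). Its brightest probe set, 1435448_at, was at 11.56, 11.44, 11.57 and 11.46 in CD44hi replicates 1 to 4, against 11.84, 11.67, 11.92 and 11.73 in CD44lo. The groups do not overlap, and the difference of -0.28 (SE 0.08, 95% interval -0.47 to -0.10) had a limma adjusted p of 0.140. The dimmer probe set 1435449_at was at 6.79, 6.33, 6.63 and 6.51 in CD44hi against 7.20, 6.94, 7.10 and 6.996 in CD44lo. Its difference of -0.49 (SE 0.11) had a limma adjusted p of 0.0530, and 0.0130 with the replicate block, where it passed as lower in CD44hi. Probe set 1456005_a_at also had groups that do not overlap, at 10.18 to 10.41 in CD44hi and 10.45 to 10.83 in CD44lo (difference -0.31, limma adjusted p = 0.231). The remaining 2 overlapped, with differences of -0.07 for 1426334_a_at and -0.17 for 1456006_at (limma adjusted p of 0.951 and 0.735). For 1456006_at the difference was -0.43 for replicate numbers 1 and 3 and 0.10 for numbers 2 and 4.

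Bbc3 codes for Puma, a BH3-only protein induced by p53. It was at 7.87, 7.996, 7.91 and 8.31 in CD44hi replicates 1 to 4, against 7.93, 8.45, 8.03 and 8.63 in CD44lo. Each CD44hi value lay below the CD44lo value of the same number, though the groups overlap (difference -0.24, SE 0.17, limma adjusted p = 0.714; -0.12 without CD44lo replicate 4). A negative difference at all 4 numbers was found for 13 of the 26 members and for 14% of all probe sets. A positive one was found for 2 members and for 13.2% of all. The 13 include every Mcl1 probe set, and probe sets of one gene are not independent results.

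Bid, which caspase-8 cleaves to link death receptors to the mitochondrion, went opposite ways at odd and even numbers. Probe set 1417045_at was at 10.74, 10.28, 10.80 and 10.24 in CD44hi replicates 1 to 4, against 10.38, 10.77, 10.49 and 10.65 in CD44lo. CD44hi was above CD44lo at numbers 1 and 3 and below it at numbers 2 and 4. The differences were 0.35, -0.49, 0.30 and -0.41 at numbers 1 to 4, and their mean of -0.06 (SE 0.15) had a limma adjusted p of 0.953. Probe set 1448560_at did the same with differences of 0.20, -0.81, 0.05 and -0.48 (mean -0.26, limma adjusted p = 0.777). Whether the 2 sets of numbers differ was not tested.

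Bak1 codes for Bak, the measured effector. Probe set 1418991_at was at 10.28, 9.55, 10.20 and 9.69 in CD44hi replicates 1 to 4, against 10.53, 9.97, 10.32 and 9.96 in CD44lo. Arrays 1 and 3 were higher than arrays 2 and 4 in both groups, and CD44hi was lower at each number. Its difference of -0.26 (SE 0.20, 95% interval -0.71 to 0.18) had a limma adjusted p of 0.738, or 0.129 with the replicate block, and was -0.14 without CD44hi replicate 2 and -0.15 without CD44lo replicate 1. Probe set 1425716_s_at was at 7.51, 6.11, 7.24 and 6.69 in CD44hi against 7.66, 7.10, 7.87 and 7.18 in CD44lo. Its difference of -0.56 (SE 0.30) had a limma adjusted p of 0.561, or 0.0753 with the block, and was -0.31 without CD44hi replicate 2.

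**Figure D4:**
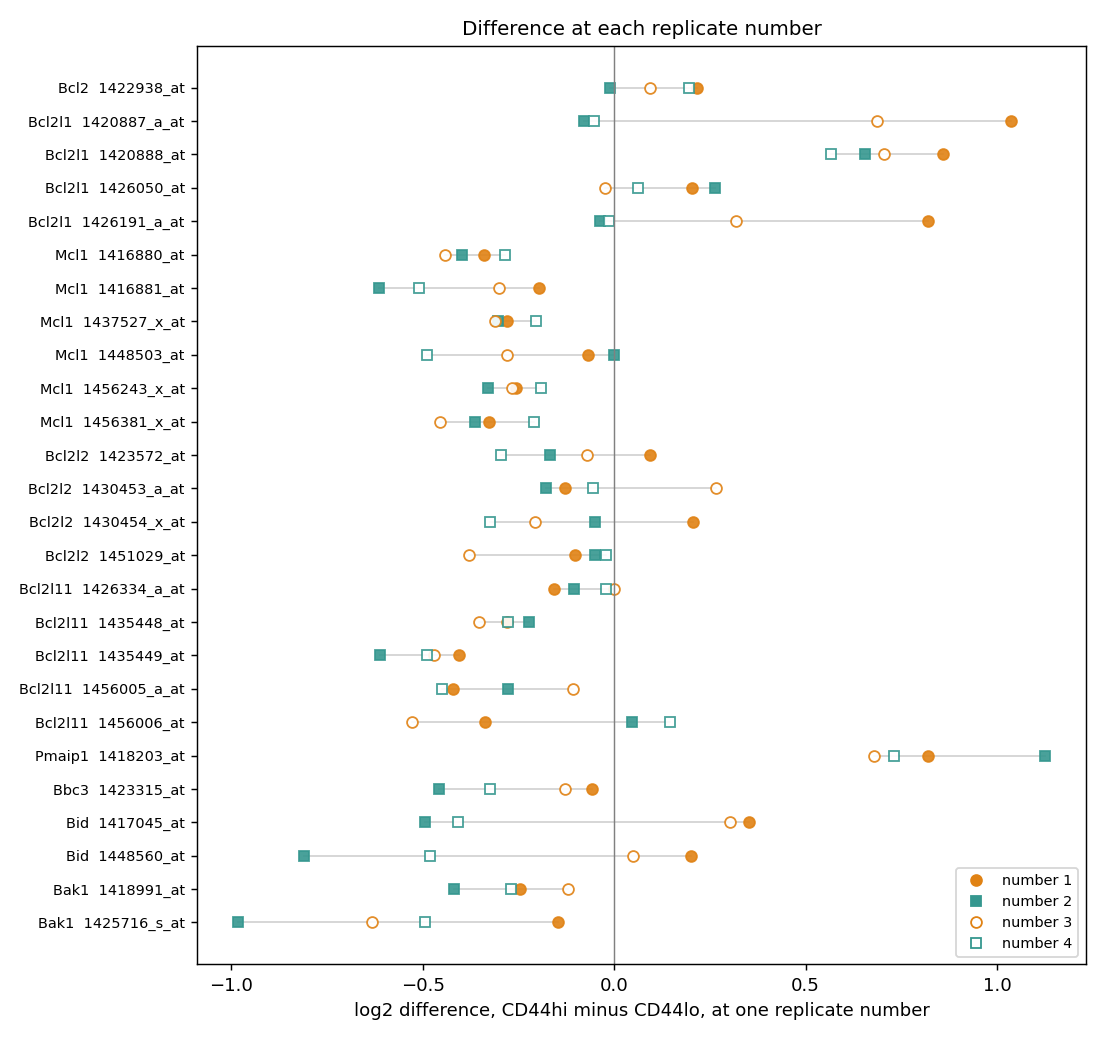
Log2 difference, CD44hi minus CD44lo, of the arrays that share a replicate number (circles for numbers 1 and 3, squares for 2 and 4), for each of the 26 member probe sets on the vertical axis. Pmaip1 and Bcl2l1 1420888_at are above 0 at each number, the Mcl1 probe sets are at or below 0, and both Bid probe sets have circles right and squares left of 0.

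Of 14 other Bcl2 family genes 9 were measured, with 13 probe sets, of which 3 rose and 0 fell (median difference 0.06). Over all probe sets 1.64% rose and 1.48% fell. The 3 are of Bcl2l14 and Bik alone. Bcl2l14, a family member also called Bcl-G, rose on both of its probe sets. The brighter was at 7.31 ± 0.10 in CD44hi and 6.35 ± 0.26 in CD44lo (n = 4 arrays each, SD; difference 0.95, SE 0.13, limma adjusted p = 0.00433), and the dimmer at 5.70 ± 0.14 in CD44hi and 5.23 ± 0.13 in CD44lo (difference 0.47, limma adjusted p = 0.0389). The dimmer lost the call whichever 1 of the 8 arrays was left out (limma adjusted p of 0.0535 to 0.123). One of 3 probe sets of Bik, a BH3-only gene, rose by 0.43 (limma adjusted p = 0.0493), at 4.22 in CD44hi and 3.79 in CD44lo. These levels lie at the control probe sets, so the size is uncertain, and it did not pass with the block (limma adjusted p = 0.0726). It passed in 1 of 8 fits with 1 array left out, that without CD44hi replicate 3. Bik 1449836_x_at and 1420363_at were brighter, at 5.51 and 5.36 in CD44hi against 5.43 and 5.30 in CD44lo. They differed by 0.07 and 0.06 with overlapping groups (limma adjusted p of 0.935 and 0.942).

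The machinery downstream of the mitochondrion comprised 16 measured genes of 18 with 34 probe sets. Of these 0 passed with limma, with or without the block (2 at an unadjusted p under 0.05, and 4 with the block), and their median difference was 0.0016. Over all probe sets 3.12% passed, and 5.15% with the block. At an unadjusted limma p under 0.05 there were 2681 of all 22626 probe sets (11.8%), and 4059 with the block. The smallest p values were those of 1 of the 2 probe sets of Diablo, whose product Smac frees caspases from their inhibitors, at 9.89 ± 0.16 in CD44hi and 9.58 ± 0.06 in CD44lo (difference 0.32, limma adjusted p = 0.149), and of 2 probe sets of Endog, a mitochondrial nuclease (differences -0.24 and -0.16, limma adjusted p of 0.282 and 0.471). The other Diablo probe set differed by 0.13 with overlapping groups (limma adjusted p = 0.826).

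Of 22 upstream regulators 20 were measured with 50 probe sets, of which 1 rose and 0 fell (median difference 0.05). Over all probe sets 1.64% rose and 1.48% fell, so 1 of 50 is close to the share of all that rose. Rel codes for the NF-kappaB subunit c-Rel, a known activator of Bcl2l1 in lymphocytes. It was at 9.63 ± 0.36 in CD44hi and 8.66 ± 0.12 in CD44lo (n = 4 arrays each, SD), a difference of 0.97 (SE 0.17, limma adjusted p = 0.0142). The call was lost without CD44lo replicate 2 or 4 (limma adjusted p of 0.0523 and 0.0562). By replicate number the Rel difference was 0.60, 1.41, 0.55 and 1.32, so it was larger at numbers 2 and 4. That of Bcl2l1 1420888_at was 0.78 for numbers 1 and 3 and 0.61 for numbers 2 and 4. A part of Rel in the Bcl2l1 difference was not tested. Stat5a, a cytokine-activated transcription factor of the STAT family, had differences of 1.10 and 0.26 on its 2 probe sets (limma adjusted p of 0.170 and 0.188). At numbers 1 to 4 they were 0.54, 1.62, 0.28 and 1.97 for 1450259_a_at, and 0.16, 0.42, 0.08 and 0.39 for 1421469_a_at. Of the 50 regulator probe sets the CD44hi values lay wholly above those of CD44lo for 3 (Rel and both of Stat5a) and wholly below them for 4, against 4.73% and 4.61% of all probe sets. The 4 lower ones, named after their values were seen, are of Egr1, an immediate early transcription factor (difference -0.61, limma adjusted p = 0.237), of Stat5b, the other STAT5 gene (1 of 2 probe sets, -0.21, limma adjusted p = 0.403), and of Ywhaz, a 14-3-3 protein (2 of 7 probe sets, -0.21 and -0.10, limma adjusted p of 0.260 and 0.645). Pim2, a survival kinase, differed by 0.47 (limma adjusted p = 0.379) and passed with the replicate block (limma adjusted p = 0.0209).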

How the data were processed

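Each of the 8 arrays was assigned to CD44hi or CD44lo, with its replicate number, from its title. The authors made the deposited intensity values with RMA (background correction, normalization between arrays and summary of probes) per the labels' protocols. The sources used here do not give its version. Although RMA usually yields log2 values, the deposited intensities ran from 7.61 to 36128 and were read as linear, and their log2 was taken with a pseudocount of 0. Of 22690 probe sets, 64 controls were left out and 22626 were tested. Of these, 20380 carry 1 gene symbol in the platform annotation, 691 carry several and 1555 none.

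limma 3.58.1 in R 4.3.3 (lmFit, eBayes) compared CD44hi with CD44lo without covariates, with Benjamini-Hochberg adjustment over all probe sets. The script was tested on simulated data. The replicate block was an alternative. Deviations from the group means correlated between arrays of the same number at 0.572, 0.392, 0.540 and 0.541, all above the minimum of 0.1. Same-numbered arrays were therefore treated as pairs in this alternative, and not in the main fit. That pairing comes from the values, and arrays that share odd or even numbers but not the number itself also correlated, at 0.371 to 0.521.

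Named are all probe sets of the members, plus the 3 probe sets most correlated with the member of largest called difference. From the lists of other family genes, downstream machinery and regulators, those that passed are named, or otherwise up to 3 with the smallest p. Pim2, the second Diablo probe set and the regulators without overlap were named after their values were seen. The cell type markers Ms4a1, Postn and Nkg7 were named for their values. The members and lists were chosen with earlier results of these data known. Promoter sequences are RefSeq's.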

Additional observations from a re-analysis of the deposited data

Results flagged for a closer look

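Mcl1 probe set 1437527_x_at on the array of CD44hi replicate 4 was at 12.74 (log2 intensity), while the other 3 CD44hi arrays lay at 12.63 to 12.64. The gap exceeds Dixon's 95% critical value for groups of 4. Of 52 groups of 4 values examined, 1 was set apart in this way, and chance alone sets apart about 1 in 20. The array lay nearer to CD44lo than the other CD44hi arrays did, and still below the lowest CD44lo value of 12.92.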

How the results depend on the processing

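Of 62 alternative values for the 3 member probe sets that passed, 40 kept their direction and their call, 22 kept the direction without the call, and 0 changed sign. The cause of the changes below was not tested, except that the stricter thresholds, fewer probe sets or fewer arrays of some settings follow from their construction. With the replicate block, members called lower numbered 2, and over all probe sets 571 were higher and 594 lower. The block also moved Pim2 past the threshold and Bik below it. Members called lower were 2 with the dim probe sets left out (191 higher and 194 lower over all), 2 with a variance trend, and 5 with array weights (620 and 656 over all). They were 0 with 1 probe set a gene (220 lower over all). With arrays numbered 1 and 3 alone 2 members were higher and 0 lower (561 and 561 over all), with 2 and 4 alone 0 and 0, and with arrays 1 and 3 and arrays 2 and 4 averaged 0 and 0 (14 and 2 over all). At an adjusted p under 0.01 1 member was higher and 0 lower (201 and 160 over all), and with the added demand of a log2 change of 1 or more there were 0 and 0 (165 and 111 over all). With 1 array left out, 1 to 2 members were higher and 0 to 2 lower, and 256 to 347 probe sets were higher and 200 to 338 lower over all. Bcl2l1 1420888_at had limma adjusted p of 0.0504 with numbers 2 and 4 alone and 0.259 with averaged arrays.

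For the other gene lists, with alternatives chosen after seeing the data, 4 probe sets were called higher and 0 lower. The number higher was 1 without dim probe sets, 2 with 1 probe set a gene and 2 with numbers 1 and 3 alone. It was 3 with each array centred on its median, with quantile normalization, with robust eBayes and with numbers 2 and 4 alone. It was 0 with averaged arrays and 1 to 3 with 1 array left out. At an adjusted p under 0.01 it was 1, and with a difference of at least 1 it was 0. The number lower was 1 with array weights, with numbers 1 and 3 alone and with numbers 2 and 4 alone.

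Sign changes concerned probe sets that had not passed. With array weights the difference became 0.0356 for Bcl2l2 1430453_a_at, 0.16 for Bid 1417045_at and 0.0014 for Bid 1448560_at. With numbers 1 and 3 alone it became 0.0111 for Bcl2l2 1423572_at, 0.0681 for Bcl2l2 1430453_a_at, 0.33 for Bid 1417045_at and 0.12 for Bid 1448560_at. With numbers 2 and 4 alone it became -0.0651 for Bcl2l1 1420887_a_at, -0.0252 for Bcl2l1 1426191_a_at and 0.10 for Bcl2l11 1456006_at.
With 1 array left out it ranged from -0.0047 to 0.46 for Bcl2l1 1426191_a_at, -0.073 to 0.013 for Bcl2l2 1430453_a_at, -0.16 to 0.021 for Bcl2l2 1430454_x_at, -0.18 to 0.048 for Bcl2l11 1426334_a_at and -0.16 to 0.0299 for Bid 1417045_at.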
